A study of Homo sapiens with 9 samples.

Results

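Genes that the androgen receptor switches on or off were followed in the human prostate carcinoma line 22Rv1, whose cells make both the full-length receptor and truncated forms that lack the hormone-binding part. The set held 47 of the 60623 genes in the deposited tables. Of these, 39 are known to be induced by androgen in prostate cells (KLK2 through TRPM8 in the list used) and 8 to be repressed by it (OPRK1, CAMK2N1, BCHE, NTNG1, FOLH1, SLC30A4, MET and DDC). Members were matched by gene symbol, and the rule that lists them uses no measured value. PDCD4, an inhibitor of translation initiation, had been knocked down by shRNA in every group, and a form of it was then put back. The forms were wild-type PDCD4 (WT), S239A, whose serine was exchanged for an alanine that takes no phosphate, and S239D, whose aspartate stands in for the phosphorylated serine. Each had 3 libraries of poly-A RNA, 9 in all, and no androgen or antiandrogen is named in the labels of any group. The study concerns resistance to the antiandrogen enzalutamide. Titles of the S239D libraries read S23D, while their genotype label reads S239D. Whether the 3 libraries of a group are separate cultures is not said in the labels. The p-values therefore reflect the spread among these samples alone, and part or all of it may be technical.

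The androgen receptor is a steroid-activated transcription factor. Bound to androgen it moves to the nucleus, joins DNA at inverted repeats of a short motif, mostly in distant enhancers, and recruits coactivators, with FOXA1 and HOXB13 as partner factors in prostate cells. Secreted kallikreins such as KLK3 (prostate-specific antigen), the membrane protease TMPRSS2 and the chaperone cofactor FKBP5 are its usual transcript readouts, and antiandrogens lower them in sensitive tumours. Other genes, among them the membrane peptidase FOLH1 (prostate-specific membrane antigen), are held down by androgen and rise when the receptor is blocked.

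Libraries held 5696841 to 9688554 counts, so that 3 counts, taken as the floor of detection, were 0.310 to 0.527 CPM (counts scaled to the size of the library), for counting error only. The mitochondrial share of counts was 2.95 ± 0.11% with WT, 3.9 ± 1.3% with S239A and 5.21 ± 0.70% with S239D (SD, n = 3). S239A replicate 2 (5.38%) and S239D replicate 2 (6.01%) were the highest of their groups, and counts of called members are given below also without these 2 libraries. PDCD4 itself was counted without telling the cells' own copy from the introduced one. Its level was 23.1 ± 2.4 CPM with WT, 22.4 ± 3.1 with S239A, and 17.0 ± 0.18 with S239D. The log2 fold change of PDCD4 in S239D was -0.44 against WT (edgeR adjusted p = 0.0164) and -0.40 against S239A (edgeR adjusted p = 0.0245). In S239A against WT it was -0.04 (edgeR adjusted p = 0.953). S239D thus differed in PDCD4 RNA as well as in the exchanged serine, and the part of each in the results below was not tested. The epithelial label was checked on markers, of which 5 luminal genes summed to 3321 to 3449 CPM with WT, 3529 to 4063 with S239A, and 1727 to 2023 with S239D. Markers of leukocytes reached at most 2.84 CPM in sum, with CD3E, MS4A1 and HBB at 0, and those of endothelium at most 0.857 CPM, with CDH5 at 0. Its 7 neuroendocrine markers summed to 162 to 172, 155 to 179 and 78.0 to 117 CPM in the same order of groups, 5 basal markers to 34.9 to 44.1, 49.7 to 62.8 and 53.9 to 60.6 CPM, and 8 fibroblast or smooth muscle markers to 69.5 to 81.7, 77.9 to 80.7 and 54.4 to 63.8 CPM. The part of these shifts in the results below was not tested. In bulk RNA, fewer cells making a transcript and less transcript per cell cannot be told apart.

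The receptor's motif was looked for close to the members' start sites, since a target gene may carry it there. RefSeq (GRCh38.p14) gave a promoter for 38 of the 47 members, and the 250 bases before the start were read on both strands. TMPRSS2, ELL2, ZBTB10, CHRNA2, SORD, TPD52, OPRK1, CAMK2N1 and FOLH1 had no matched promoter and were not searched. A single start was used for each gene, so other starts of the same gene were not searched either. The RefSeq starts need not match the gene ends in the deposited coordinates. Some windows lie inside the deposited span of the gene, as for KLK2 and LIFR, or well before it, as for HERC3 and RHOU. The full motif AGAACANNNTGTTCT, with up to 2 mismatches in its 12 fixed letters, was present before 1 of 33 induced and 0 of 5 repressed members, against 1.19% of all 27305 promoters of the same length. A single arm, AGAACA or TGTTCT, stood before the same number of members (1 of 33 and 0 of 5), overlapping that full site, and in 12.4% of all promoters. The gene with a match was KLK3. Its neighbour KLK2 is shown with it because the pair arose from a common ancestor and the stretches align: 205 of 259 aligned positions (79.2%) were identical. Capitals mark the match in KLK3, whose first base lies 170 bases before the start, and the most similar stretch of KLK2, 176 bases before its start. The KLK3 stretch has 2 mismatches to the motif and the KLK2 stretch 3, and from KLK3 to KLK2 they differ by A1G, counted from the first base of the stretch. The promoters of C1orf116 and KLF9, the induced members with the highest and the lowest change in S239D against WT, hold no match and stand in lower case throughout. Windows lie at chr19:50854665-50854914 (plus strand) for KLK3, chr19:50873189-50873438 (plus strand) for KLK2, chr1:207032757-207033006 (minus strand) for C1orf116 and chr9:70414658-70414907 (minus strand) for KLF9, each printed 5′ to 3′ on the gene's strand.
KLK3: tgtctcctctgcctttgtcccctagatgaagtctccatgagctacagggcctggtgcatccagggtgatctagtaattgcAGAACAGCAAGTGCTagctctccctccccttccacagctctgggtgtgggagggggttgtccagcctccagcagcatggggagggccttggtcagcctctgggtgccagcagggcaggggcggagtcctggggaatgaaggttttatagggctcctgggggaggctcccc
KLK2: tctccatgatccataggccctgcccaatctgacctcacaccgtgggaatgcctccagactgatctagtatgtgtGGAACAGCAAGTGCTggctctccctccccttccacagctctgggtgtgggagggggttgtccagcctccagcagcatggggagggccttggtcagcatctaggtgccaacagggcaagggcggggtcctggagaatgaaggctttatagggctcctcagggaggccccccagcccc
C1orf116: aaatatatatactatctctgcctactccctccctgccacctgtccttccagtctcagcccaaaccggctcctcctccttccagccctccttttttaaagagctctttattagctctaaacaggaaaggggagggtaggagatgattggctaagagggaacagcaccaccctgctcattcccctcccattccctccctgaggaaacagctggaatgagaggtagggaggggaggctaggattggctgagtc
KLF9: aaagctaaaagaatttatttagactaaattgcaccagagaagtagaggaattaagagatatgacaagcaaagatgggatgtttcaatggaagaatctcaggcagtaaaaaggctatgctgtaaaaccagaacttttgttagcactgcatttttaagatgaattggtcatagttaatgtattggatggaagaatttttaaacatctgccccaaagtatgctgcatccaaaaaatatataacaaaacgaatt

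Against WT, the induced targets split in S239D: a number of them rose up to 3.25-fold, others fell to about the same extent, and most did not pass the test. Of the 39 induced genes, 38 had enough counts to be tested. Of those, 8 were higher and 10 lower in S239D, by edgeR's quasi-likelihood test at an adjusted p of 0.05. That is 47.4% of the tested members, beside 41.4% of all 16213 genes (19.7% higher and 21.7% lower). Their median log2 fold change was -0.14, with 13 values above 0 and 25 below, against 0.00075 over all genes. Without the 2 replicate 2 libraries of the variants, 9 were higher and 16 lower, beside 51.6% of all genes called. With limma on log2(TPM + 1), 6 were higher and 7 lower, beside 25.1% of all genes. Under that alternative the split over all genes moved from 3195 higher and 3513 lower to 2526 higher and 1825 lower.

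**Figure D1:**
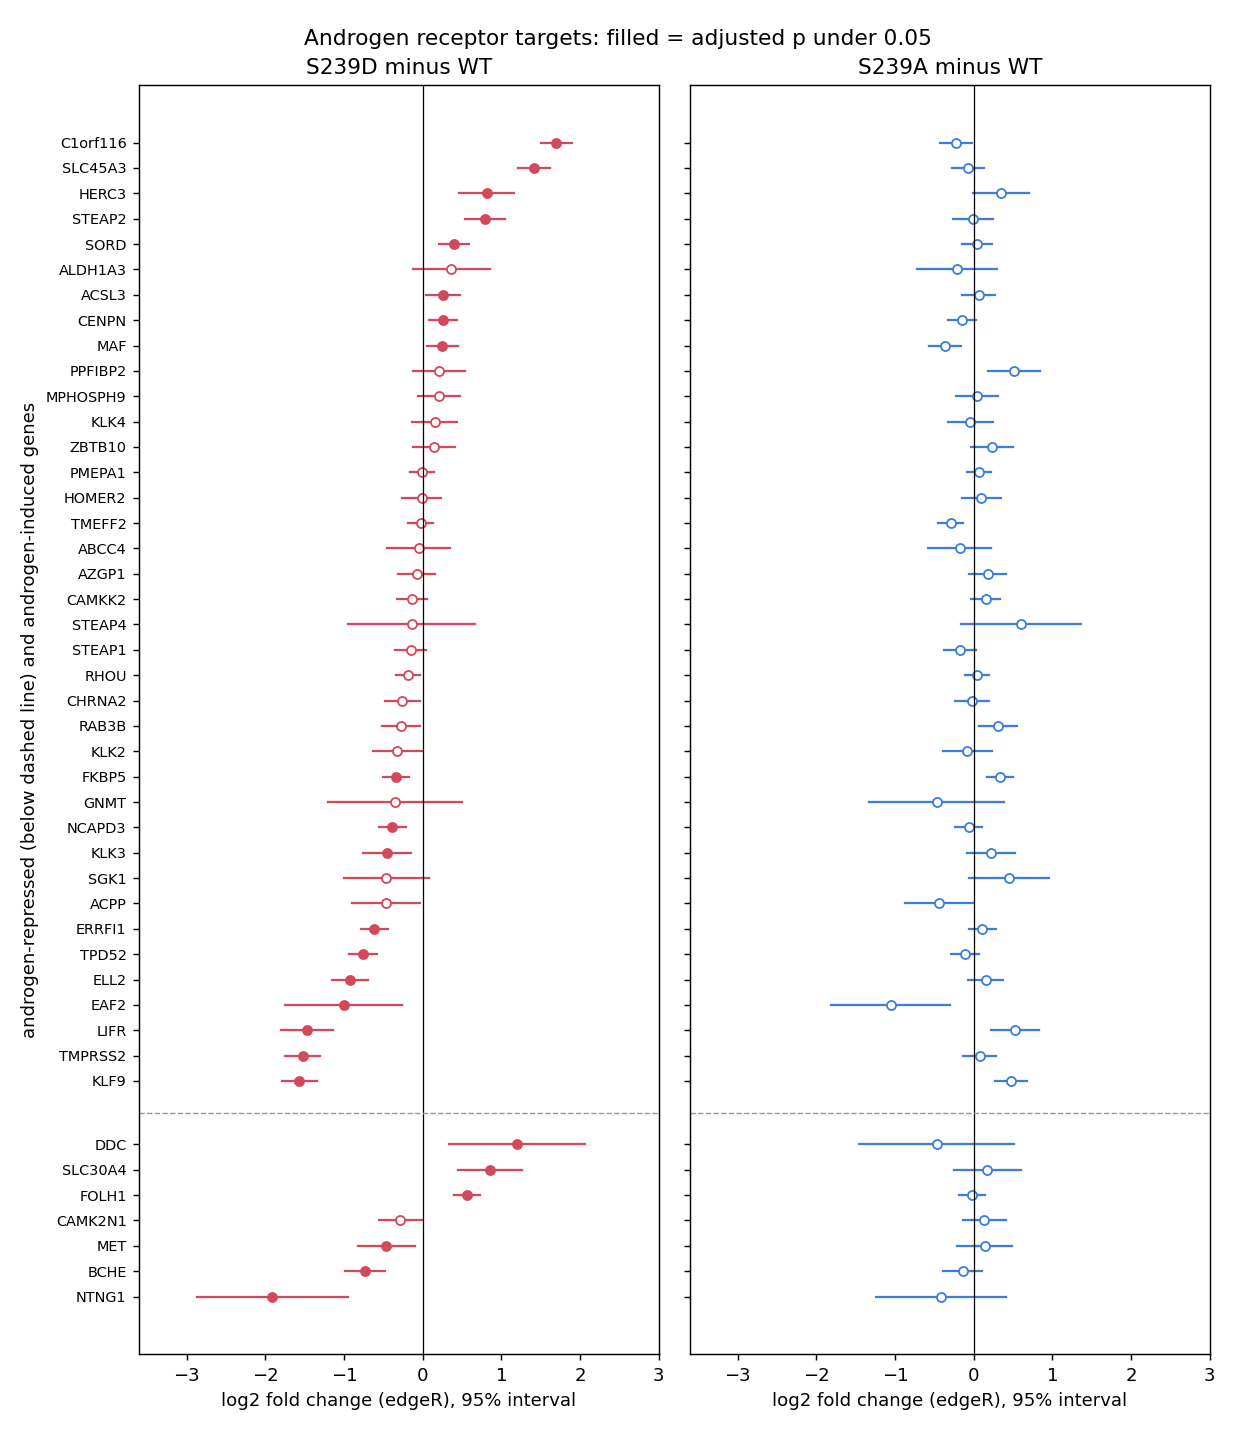
Log2 fold changes (edgeR, x axis) with 95% intervals for the 45 tested members in S239D minus WT (left) and S239A minus WT (right). Filled points passed an adjusted p of 0.05. In S239D minus WT the induced genes run from -1.57 (KLF9) to 1.70 (C1orf116), and no member is filled in S239A minus WT.

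The secreted kallikreins lie side by side on chromosome 19. In S239D against WT, KLK3 was called lower while KLK2 and KLK4 did not pass, and differences between their changes were not tested. KLK3 (50854915 to 50860764), the protease measured in blood as prostate-specific antigen, read 88.3, 78.0 and 83.2 CPM with WT, 109, 70.4 and 112 with S239A, and 65.3, 55.6 and 61.4 with S239D. All 3 S239D libraries lay below the other 6. KLK3 was lower in S239D than in WT (log2 fold change -0.45, SE 0.14, edgeR adjusted p = 0.0211). The call was lost without WT replicate 1, WT replicate 3, S239D replicate 2 or S239D replicate 3 (edgeR adjusted p 0.0553 to 0.0836), as it was by limma on log2(TPM + 1) at adjusted p = 0.215.

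KLK2 (50861568 to 50880567), a trypsin-like kallikrein that activates the KLK3 precursor, read 91.2, 88.8 and 90.4 CPM with WT, 99.2, 61.7 and 94.5 with S239A, and 69.3, 65.1 and 81.8 with S239D. The S239D libraries lay below all WT libraries but overlapped S239A, whose replicate 2 was the lowest of the 9. Its difference from WT did not pass, at a log2 fold change of -0.32 (95% interval -0.63 to -0.01, edgeR adjusted p = 0.0908). It did pass without S239A replicate 2 (edgeR adjusted p = 0.00936) and, with all libraries kept, with no filter, the replicate block or a fit of the compared groups alone (edgeR adjusted p 0.0140, 0.0289 and 0.0144). KLK4 (50906352 to 50910738), an enamel and prostate protease, read 304, 292 and 307 CPM with WT, 333, 225 and 319 with S239A, and 381, 282 and 342 with S239D. The groups overlapped, and S239A replicate 2 was again the lowest of the 9. Its log2 fold change in S239D against WT was 0.15 (95% interval -0.13 to 0.44, edgeR adjusted p = 0.379).

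TMPRSS2 (chromosome 21, 41464305 to 41531116), the serine protease whose promoter is often fused to ETS genes in prostate cancer, fell to 0.348 of its WT level in S239D. It read 148, 153 and 145 CPM with WT, 160, 144 and 167 with S239A, and 56.5, 43.3 and 55.2 with S239D. The S239D libraries were far below the other 6, which overlapped. Its log2 fold change against WT was -1.52 (SE 0.10, edgeR adjusted p = 1.4e-07), and the call held in every alternative run. FKBP5 (chromosome 6, 35573585 to 35728583), a cofactor of the chaperone that holds steroid receptors ready for hormone, read 1014, 955 and 956 CPM with WT, 1166, 1335 and 1188 with S239A, and 734, 796 and 783 with S239D. The 3 groups did not overlap, with S239D lowest and S239A highest. FKBP5 was lower in S239D than in WT (log2 fold change -0.34, SE 0.076, edgeR adjusted p = 0.0028), which was lost with limma on log2(TPM + 1) (adjusted p = 0.0593).

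Among the induced genes that rose, C1orf116 and SLC45A3, both on the long arm of chromosome 1, stood out in size. C1orf116 (207018522 to 207032756), which encodes the little-studied protein SARG, named for its regulation by androgen, read 115, 118 and 113 CPM with WT, 92.6, 114 and 89.2 with S239A, and 384, 367 and 373 with S239D. Every S239D library was above 3 times the highest of the others. The log2 fold change against WT was 1.70 (SE 0.094, edgeR adjusted p = 2.4e-08). SLC45A3 (205657851 to 205680509), the prostate surface transporter prostein, read 49.2, 51.3 and 54.9 CPM with WT, 53.9, 45.6 and 48.5 with S239A, and 143, 129 and 144 with S239D. WT and S239A overlapped, and S239D lay above both (log2 fold change from WT 1.42, SE 0.095, edgeR adjusted p = 1.2e-07). Both calls held in every alternative run.

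STEAP2, HERC3 and SORD rose less. STEAP2 (chromosome 7, 90167590 to 90238137), a metalloreductase of the prostate membrane, read 226, 241 and 226 CPM with WT, 231, 237 and 221 with S239A, and 344, 503 and 358 with S239D. Its S239D libraries were all above the others, replicate 2 by the most (log2 fold change 0.80, SE 0.12, edgeR adjusted p = 0.00012). STEAP1, the related antigen 2.76 kb upstream, did not pass (-0.15, 95% interval -0.36 to 0.05, edgeR adjusted p = 0.21). HERC3 (chromosome 4, 88592434 to 88708541), a ubiquitin ligase, read 11.9, 10.5 and 17.3 CPM with WT, 18.3, 15.6 and 17.4 with S239A, and 21.9, 23.7 and 25.2 with S239D. S239D was highest, and WT replicate 3 sat among the S239A libraries (log2 fold change against WT 0.81, SE 0.16, edgeR adjusted p = 0.0013). SORD (chromosome 15, 45023181 to 45077185), sorbitol dehydrogenase, read 98.5, 105 and 103 CPM with WT, 95.9, 113 and 107 with S239A, and 136, 127 and 141 with S239D. The S239D libraries did not overlap the rest (0.40, SE 0.086, edgeR adjusted p = 0.0022). HERC3 and SORD had estimated counts that were not whole in all 9 libraries, a sign of reads shared with similar sequences, so their levels are uncertain. TPD52 and MPHOSPH9 had such counts in 4 libraries and AZGP1 in 2. HERC3 also overlaps a gene without a symbol on the same strand, which held 28.0% as many counts.

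A further 3 rises were close to the threshold. CENPN (chromosome 16, 81006498 to 81033114), a centromere protein, read 84.0, 82.4 and 74.5 CPM with WT, 72.2, 72.5 and 72.6 with S239A, and 98.6, 94.5 and 95.1 with S239D (log2 fold change against WT 0.26, edgeR adjusted p = 0.021). Its call was lost without WT replicate 3, S239D replicate 1 or S239D replicate 3 (edgeR adjusted p 0.0529 to 0.118), with no filter (adjusted p = 0.0735) and by limma on log2(TPM + 1) at adjusted p = 0.221. CENPN overlaps CMC2 on the other strand, which held 103% as many counts and fell (-0.97, edgeR adjusted p = 1.1e-05). The labels do not say whether counting used strand, so their reads cannot be told apart where they overlap.

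MAF (chromosome 16, 79585843 to 79600737), a leucine zipper transcription factor, read 53.6, 49.9 and 57.1 CPM with WT, 39.9, 42.3 and 43.0 with S239A, and 66.4, 62.8 and 62.4 with S239D. The 3 groups did not overlap, with WT between the variants (log2 fold change in S239D against WT 0.25, edgeR adjusted p = 0.041). Leaving out any library other than S239A replicate 2 or S239D replicate 2 ended that call (edgeR adjusted p 0.0505 to 0.16), as did DESeq2, no filter and limma on log2(TPM + 1) (adjusted p 0.0527 to 0.127). ACSL3 (chromosome 2, 222860942 to 222944639), which activates long-chain fatty acids, read 125, 115.7 and 119 CPM with WT, 117, 141 and 119 with S239A, and 131, 161 and 140 with S239D. Replicate 2 was the highest of both variant groups, and S239A overlapped both others (0.26, edgeR adjusted p = 0.047). Only without S239A replicate 2 or S239D replicate 1, of the 9 libraries left out in turn, did the call hold; the others gave edgeR adjusted p 0.0512 to 0.147, and no filter gave 0.0515.

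**Figure D2:**
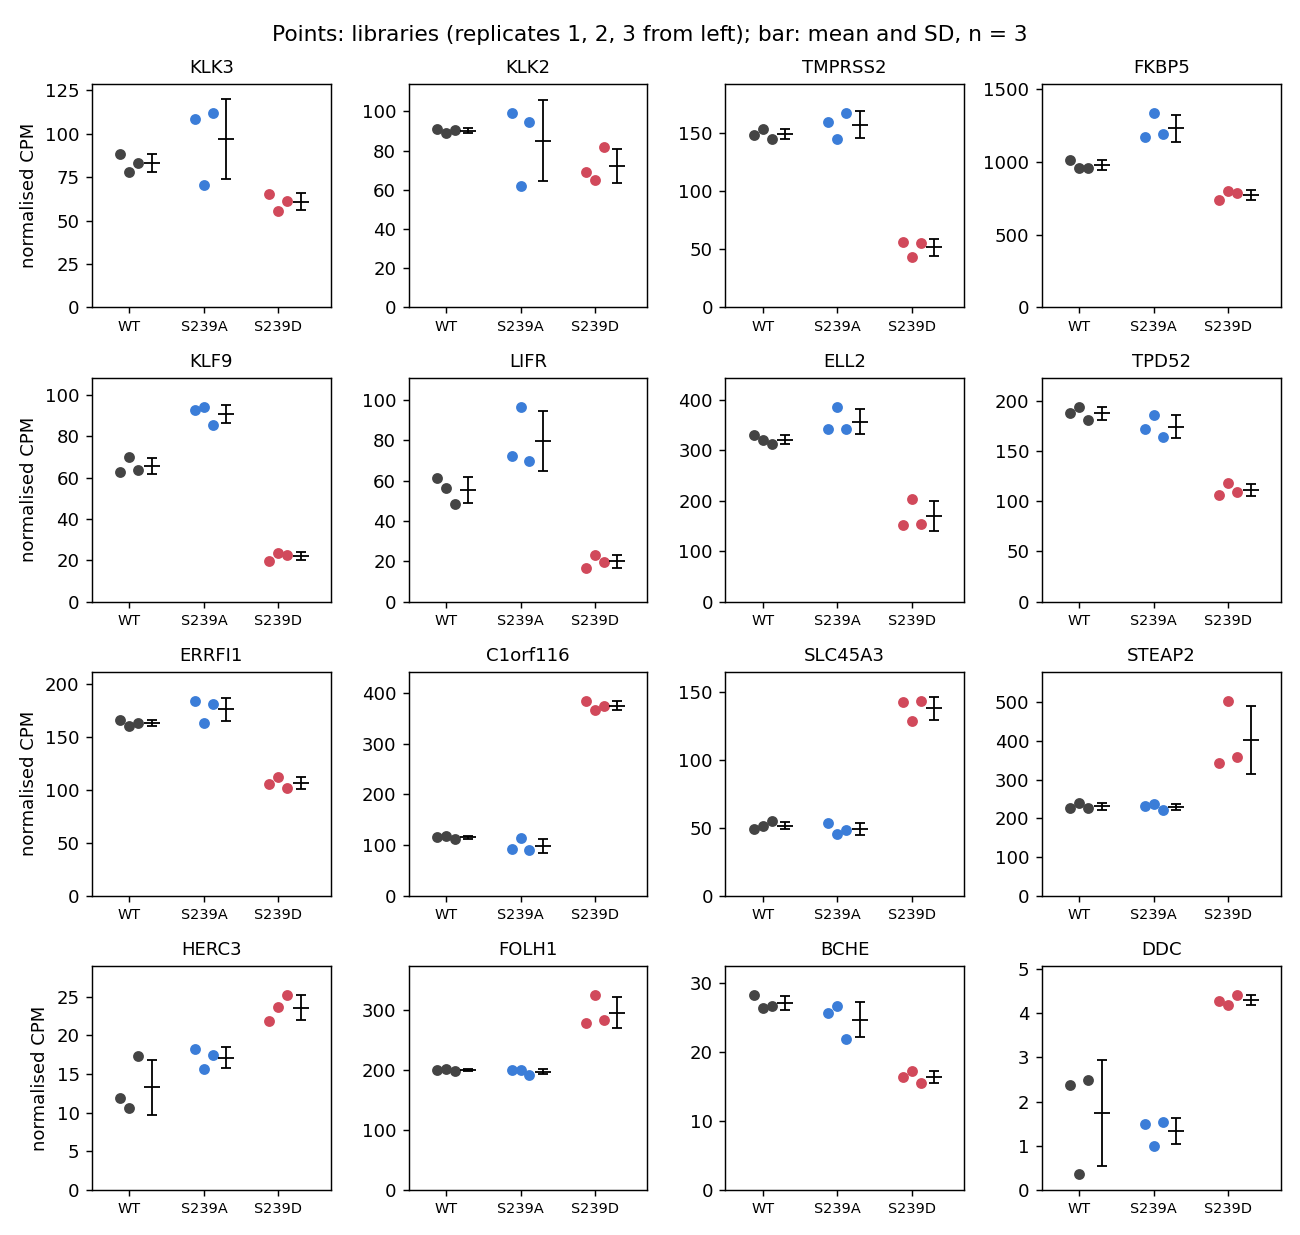
Normalised CPM (y axis, from 0) of 16 members in each library, as points by group (WT, S239A, S239D) with the mean and SD of 3 libraries beside them. C1orf116 sits at 367 to 384 CPM in S239D and at most 118 elsewhere, while TMPRSS2 sits at 43.3 to 56.5 CPM in S239D and at least 144 elsewhere.

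The largest falls among induced genes were in KLF9, TMPRSS2 and LIFR. KLF9 (chromosome 9, 70384597 to 70414624), a zinc finger factor induced by several steroid hormones, read 62.9, 69.9 and 63.7 CPM with WT, 92.5, 94.2 and 85.6 with S239A, and 19.8, 23.7 and 22.7 with S239D. The 3 groups did not overlap, S239A being highest. Its log2 fold change in S239D against WT was -1.57 (SE 0.10, edgeR adjusted p = 1.1e-07). LIFR (chromosome 5, 38474668 to 38608354), the receptor of leukaemia inhibitory factor, read 61.2, 56.4 and 48.3 CPM with WT, 72.3, 96.5 and 69.8 with S239A, and 16.8, 23.3 and 19.6 with S239D. The order of groups was the same as for KLF9, again with no overlap (-1.47, SE 0.15, edgeR adjusted p = 6.4e-06). Both calls held in every alternative run. The antisense gene LIFR-AS1, with 8.10% as many counts, also fell (-1.79, edgeR adjusted p = 0.00018).

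ELL2 and EAF2 encode partner proteins of RNA polymerase elongation. ELL2 (chromosome 5, 95885098 to 95961851) read 331, 320 and 313 CPM with WT, 343, 386 and 343 with S239A, and 152, 204 and 154 with S239D. S239D was far lowest and S239A a little above WT (log2 fold change in S239D against WT -0.92, SE 0.11, edgeR adjusted p = 1.4e-05). EAF2 (chromosome 3, 121835183 to 121886526) was scarce, at 2.60, 2.81 and 3.06 CPM with WT, 1.85, 0.983 and 1.23 with S239A, and 1.10, 1.85 and 1.26 with S239D. Both variants lay below WT and overlapped each other (log2 fold change in S239D against WT -1.0, SE 0.35, edgeR adjusted p = 0.032). That call was lost without any WT library, S239D replicate 1 or S239D replicate 3 (edgeR adjusted p 0.0654 to 0.105), with no filter (adjusted p = 0.0565) and with DESeq2 (adjusted p = 0.0763).

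TPD52 (chromosome 8, 80034745 to 80231232), a vesicle protein gene often gained in prostate tumours, read 187, 194 and 181 CPM with WT, 172, 186 and 163 with S239A, and 106, 118 and 109 with S239D. Its S239D libraries did not overlap the rest (log2 fold change against WT -0.76, SE 0.082, edgeR adjusted p = 8.6e-06). ERRFI1 (chromosome 1, 8004404 to 8026309), a feedback inhibitor of the EGF receptor, read 166, 161 and 164 CPM with WT, 184, 164 and 181 with S239A, and 105, 113 and 102 with S239D. There too S239D stood apart below (-0.62, SE 0.081, edgeR adjusted p = 4.2e-05). NCAPD3, a condensin subunit, went from 211 ± 3.1 CPM in WT and 202 ± 14 in S239A to 161 ± 8.4 in S239D (SD, n = 3; -0.39, edgeR adjusted p = 0.0015), a call lost with limma on log2(TPM + 1) (adjusted p = 0.332). VPS26B, which overlaps it on the other strand with 40.4% as many counts, fell as well (-0.35, edgeR adjusted p = 0.0055).

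Some abundant induced genes did not pass in S239D against WT. PMEPA1, a feedback inhibitor of TGF-beta signalling, stood at 1051 ± 10 CPM with WT, 1102 ± 65 with S239A, and 1047 ± 44 with S239D (SD, n = 3), a log2 fold change of -0.01 (95% interval -0.16 to 0.15). Its antisense neighbour NKILA, with 10.9% as many counts, fell over the same comparison (-1.0, edgeR adjusted p = 8.6e-07). TMEFF2, a membrane protein of prostate and brain, was at 306 ± 1.4, 250 ± 17 and 300 ± 9.7 CPM (-0.03, 95% interval -0.19 to 0.13). HOMER2, a synaptic scaffold, stood at 41.0 ± 0.54, 43.9 ± 7.0 and 40.6 ± 1.5 CPM (-0.01, 95% interval -0.26 to 0.24). RHOU, a small GTPase, was just outside at -0.19 (95% interval -0.34 to -0.03, edgeR adjusted p = 0.0503), with the S239D libraries (439 to 449 CPM) below all WT libraries (505 to 508). It passed without S239A replicate 2 or S239D replicate 2 (edgeR adjusted p 0.0136 to 0.0455), under DESeq2 (adjusted p = 0.0431) and in a fit of the compared groups alone (edgeR adjusted p = 0.0204).

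Other induced members outside the threshold in S239D against WT had these values. RAB3B, a GTPase of secretory vesicles (-0.27, edgeR adjusted p = 0.0691), and CHRNA2, a nicotinic receptor subunit (-0.26, edgeR adjusted p = 0.059), each lay lower in all 3 S239D libraries than in WT. RAB3B passed without S239A replicate 2 or S239D replicate 2, and with all libraries kept under no filter, the replicate block or the compared groups alone (edgeR adjusted p 0.0155 to 0.0435). CHRNA2 passed without WT replicate 1 or S239A replicate 2, and with the replicate block or the compared groups alone (edgeR adjusted p 0.0354 to 0.0425). ACPP, prostatic acid phosphatase, stood low at 7.96 ± 1.2 CPM in WT and 5.74 ± 0.80 in S239D (SD, n = 3; -0.46, 95% interval -0.90 to -0.03, edgeR adjusted p = 0.0818). CAMKK2, the kinase upstream of AMPK, was at -0.14, AZGP1, a secreted zinc-binding glycoprotein, at -0.08, ZBTB10 at 0.15, MPHOSPH9 at 0.21 and the drug and nucleotide exporter ABCC4 at -0.05. Scarce members had wide intervals: STEAP4 (2.52 ± 0.39 CPM in WT) ran from -0.95 to 0.67, GNMT (2.49 ± 0.33) from -1.20 to 0.50, SGK1 (4.10 ± 1.0) from -1.0 to 0.08, ALDH1A3 (4.53 ± 0.30) from -0.13 to 0.85 and PPFIBP2 (9.16 ± 0.81) from -0.13 to 0.54. GNMT, ALDH1A3, MPHOSPH9 and PPFIBP2 overlap genes on the other strand with 4165%, 226%, 50.7% and 33.5% as many counts. Whether counting used strand is not known, so the levels of these members are uncertain. TRPM8, the cold-sensing channel, had 4 counts over all 9 libraries, at most 2 in any of them and 0 in every S239A library, and was not tested.

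The repressed genes also went both ways. Of 8, 7 could be tested. Of those, 3 were higher (FOLH1, SLC30A4 and DDC) and 3 lower (BCHE, NTNG1 and MET) in S239D than in WT, a share of 85.7% beside 41.4% of all genes, and with a median log2 fold change of -0.28. The counts came to 6 also without the 2 replicate 2 libraries, and to 2 with limma on log2(TPM + 1). FOLH1 (chromosome 11, 49145092 to 49208638) read 199, 201 and 198 CPM with WT, 199, 199 and 192 with S239A, and 278, 324 and 283 with S239D. WT and S239A were level, and S239D stood above both (log2 fold change from WT 0.57, SE 0.079, edgeR adjusted p = 7.3e-05). Its estimated counts were not whole in 8 libraries, so reads shared with a related copy make its level uncertain.

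SLC30A4 (chromosome 15, 45479606 to 45522755), a zinc transporter, read 8.34, 8.08 and 7.48 CPM with WT, 10.2, 10.1 and 6.76 with S239A, and 12.2, 17.1 and 13.9 with S239D. S239D was above the other 6, replicate 2 highest (log2 fold change against WT 0.85, SE 0.19, edgeR adjusted p = 0.0026). BCHE (chromosome 3, 165772904 to 165837462), butyrylcholinesterase, read 28.2, 26.3 and 26.6 CPM with WT, 25.6, 26.6 and 21.8 with S239A, and 16.3, 17.1 and 15.4 with S239D. It was lowest in S239D without overlap (-0.73, SE 0.12, edgeR adjusted p = 0.00025). MET (chromosome 7, 116672196 to 116798386), the receptor of hepatocyte growth factor, read 13.4, 13.3 and 13 CPM with WT, 16.5, 15.5 and 12 with S239A, and 8.70, 11.6 and 8.71 with S239D. Its S239D libraries lay below the rest, replicate 2 nearest to them (-0.46, SE 0.17, edgeR adjusted p = 0.042). The MET call was lost without any WT library, S239D replicate 1 or S239D replicate 3 (edgeR adjusted p 0.0851 to 0.145) and with DESeq2 (adjusted p = 0.0709). With limma on log2(TPM + 1), SLC30A4 (adjusted p = 0.21) and MET (adjusted p = 0.696) did not pass.

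NTNG1 and DDC were near the floor. NTNG1 (chromosome 1, 107140007 to 107483458), a netrin-like axon guidance protein, read 4.23, 1.58 and 2.83 CPM with WT, 1.73, 2.58 and 2.36 with S239A, and 1.10, 0.863 and 0.420 with S239D, where replicate 3 held 4 counts. S239D was lowest (log2 fold change against WT -1.91, SE 0.45, edgeR adjusted p = 0.0036), and limma on log2(TPM + 1) gave -0.20 (adjusted p = 0.743). DDC (chromosome 7, 50458436 to 50565405), the decarboxylase that makes dopamine and serotonin and binds the receptor, read 2.38, 0.351 and 2.49 CPM with WT, 1.48, 0.983 and 1.54 with S239A, and 4.29, 4.19 and 4.41 with S239D. WT replicate 2 had 2 counts, below the floor, while the S239D libraries were even and highest (1.20, SE 0.40, edgeR adjusted p = 0.027). The DDC call did not survive leaving out WT replicate 2 (0.81, edgeR adjusted p = 0.0547), S239D replicate 1 or S239D replicate 3 (edgeR adjusted p up to 0.0682), nor the use of limma on log2(TPM + 1) (adjusted p = 0.27). DDC shares its span and strand with FIGNL1, which had 5121 counts to its 192. CAMK2N1 (chromosome 1, 20482391 to 20486210), an inhibitor of the kinase CaMKII, read 17.1, 21.1 and 18.9 CPM with WT, 22.6, 20.8 and 19.2 with S239A, and 14.9, 16.2 and 15.5 with S239D. Lower in every S239D library, it did not pass against WT (-0.28, 95% interval -0.56 to -0.01, edgeR adjusted p = 0.0909). OPRK1, the kappa opioid receptor, had 11 counts over the 9 libraries and was not tested.

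**Figure D3:**
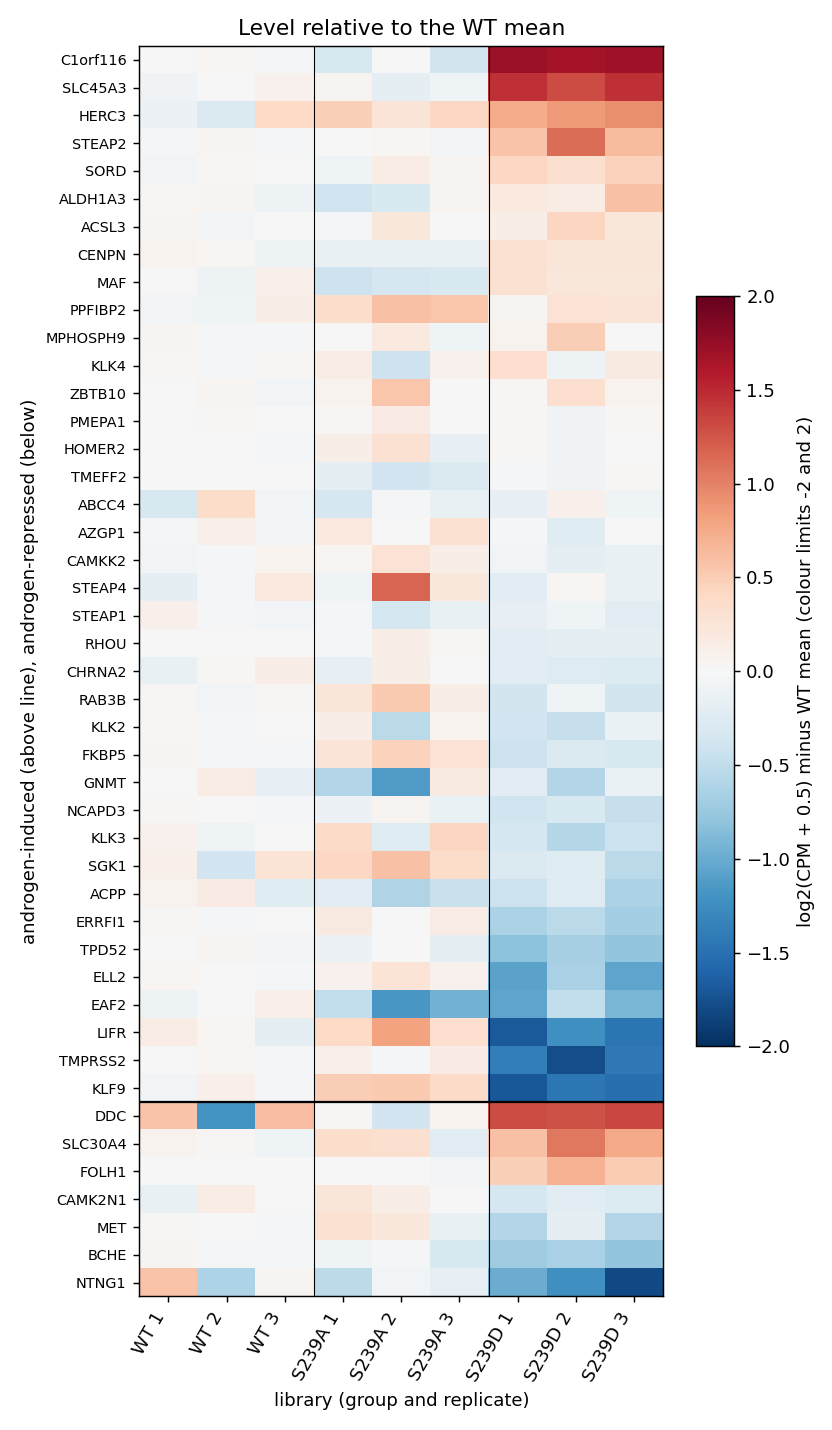
Colour shows log2(CPM + 0.5) minus the WT mean (limits -2 and 2) for the 45 tested members (rows, repressed genes below the line) in each of the 9 libraries (columns). The S239D columns are blue for KLF9, TMPRSS2 and LIFR and red for C1orf116 and SLC45A3 in all 3 libraries, while the S239A columns stay pale for most genes.

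In S239A against WT, whether members were called depended on the settings. By edgeR 0 of the 38 tested induced and 0 of the 7 repressed members passed, beside 0.00617% of all genes. At an unadjusted p under 0.05 there were 10 of the 38 induced members, a larger share than the 9.76% of all genes, and 0 repressed ones. DESeq2, with 0.401% of all genes called, passed 2 induced genes, FKBP5 (0.34, adjusted p = 0.0105) and KLF9 (0.48, adjusted p = 0.0073), and edgeR with no filter (0.494% of all genes) passed these and LIFR (0.52, adjusted p = 0.0045). All 3 S239A libraries lay above all WT libraries for FKBP5, KLF9 and LIFR. In the main edgeR fit their log2 fold changes were 0.33 (95% interval 0.17 to 0.50, adjusted p = 0.201), 0.47 (0.27 to 0.67, adjusted p = 0.201) and 0.52 (0.22 to 0.83, adjusted p = 0.266). Without the 2 replicate 2 libraries, 5 of the 38 induced members passed as higher and 3 as lower, together a larger share than the 5.29% of all genes. The higher ones were FKBP5, KLF9, LIFR, KLK3 (0.40, edgeR adjusted p = 0.0011) and AZGP1, and the lower ones C1orf116 (-0.34, edgeR adjusted p = 0.0015), MAF (-0.37, edgeR adjusted p = 0.0117) and TMEFF2.

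S239D against S239A shares the S239D libraries with the comparison above, and its values are set beside those. Of the 38 induced members, 8 were higher and 13 lower, beside 43.6% of all genes (20.9% higher and 22.7% lower), with a median log2 fold change of -0.10 against 0.0099 over all genes. Among the repressed, 3 were higher and 4 lower. The induced counts were 10 and 15 without the 2 replicate 2 libraries (49.9% of all genes called), and 6 and 8 with limma on log2(TPM + 1) (27.1% of all genes). The latter moved the split over all genes from 3390 higher and 3674 lower to 2784 higher and 1913 lower, and left 2 repressed members past the threshold. The distance to S239A was greater than that to WT for KLF9 (-2.04 and -1.57), LIFR (-2.0 and -1.47), FKBP5 (-0.67 and -0.34), C1orf116 (1.92 and 1.70) and MAF (0.61 and 0.25). For KLF9, LIFR, FKBP5, C1orf116 and MAF the difference between those distances is S239A against WT, which passed for none of these 5 with all libraries under the edgeR filter used here. As given above, edgeR passed FKBP5, KLF9 and LIFR with no filter and all 5 without the replicate 2 libraries.

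Several induced genes passed only against S239A, and whether those differences exceed the ones from WT is again the comparison of S239A with WT, where none passed in the edgeR fit of all 9 libraries. SGK1, a kinase induced by steroid hormones, stood at 5.72 ± 0.49 CPM in S239A and 3.05 ± 0.37 in S239D (SD, n = 3; log2 fold change -0.91, edgeR adjusted p = 0.0076). RAB3B was at 112 ± 17 and 75.1 ± 8.8 CPM (-0.58, edgeR adjusted p = 0.00085), and CAMKK2 at 147 ± 13 and 121 ± 5.5 CPM (-0.29, edgeR adjusted p = 0.015). The CAMKK2 call was lost without S239D replicate 3 (edgeR adjusted p = 0.0569). RHOU was lower too (-0.23, edgeR adjusted p = 0.0184), lost without S239D replicate 1 or S239D replicate 3 (edgeR adjusted p 0.0503 to 0.0559). With limma on log2(TPM + 1), the calls of SGK1, RAB3B, CAMKK2 and RHOU against S239A were lost (adjusted p 0.107, 0.0617, 0.0513 and 0.215). TMEFF2 was higher (0.26, edgeR adjusted p = 0.011). KLK3 was lower in S239D than in S239A (log2 fold change -0.68, SE 0.14, edgeR adjusted p = 0.0017). KLK2 did not pass (-0.24, 95% interval -0.55 to 0.07, edgeR adjusted p = 0.198) except without S239A replicate 2 (-0.42, edgeR adjusted p = 0.0033). EAF2 (0.05, edgeR adjusted p = 0.925) and ACSL3 (0.20, edgeR adjusted p = 0.119) did not pass either, ACSL3 doing so without S239A replicate 2 (0.29, edgeR adjusted p = 0.0217).

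The remaining members called against WT were called against S239A with the same sign. Values were -1.60 for TMPRSS2, -1.07 for ELL2, -0.73 for ERRFI1, -0.65 for TPD52, -0.32 for NCAPD3, 1.49 for SLC45A3, 0.81 for STEAP2, 0.36 for SORD and 0.41 for CENPN. HERC3 was at 0.47 (edgeR adjusted p = 0.0281), lost without S239A replicate 2, S239A replicate 3 or S239D replicate 3 (edgeR adjusted p 0.0563 to 0.0952). Of the repressed genes, FOLH1 stood at 0.59, SLC30A4 at 0.68, DDC at 1.67, BCHE at -0.60 and MET at -0.60. NTNG1 was at -1.49 (edgeR adjusted p = 0.0166), lost without S239D replicate 3 (edgeR adjusted p = 0.0788), and CAMK2N1 at -0.42 (edgeR adjusted p = 0.0148), lost without S239A replicate 1 (edgeR adjusted p = 0.068). With limma on log2(TPM + 1), calls against S239A were lost for NCAPD3 (-0.07, adjusted p = 0.626), SORD (adjusted p = 0.107) and HERC3 (adjusted p = 0.0574). Among the repressed genes limma lost NTNG1 (-0.43, adjusted p = 0.435), CAMK2N1 (adjusted p = 0.130), SLC30A4 (adjusted p = 0.122), DDC (adjusted p = 0.0898) and MET (adjusted p = 0.195).

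Levels per transcript length, in TPM, put the members in order within each group. In WT the top were KLK4 (524 ± 16 TPM, SD, n = 3), PMEPA1 (486 ± 24) and FKBP5 (363 ± 13), of which the first pair overlapped within their SDs. RHOU followed at 179 ± 0.068, then TMEFF2 (161 ± 5.4) and STEAP1 (160 ± 10), which did not differ beyond their spread. In S239D, KLK4 (600.0 ± 43) and PMEPA1 (478 ± 124) overlapped within their SDs, followed by FKBP5 (305 ± 22) and FOLH1 (195 ± 30). FOLH1 moved from place 10 in WT to place 4 in S239D, C1orf116 from 22 (39.3 ± 0.78 TPM) to 9 (133 ± 0.94), STEAP2 from 19 to 10 and SLC45A3 from 25 to 17. Place 4 is not settled, since FOLH1 in S239D overlapped RHOU (168 ± 7.5 TPM) and TMEFF2 (165 ± 2.8) within their SDs. TMPRSS2 moved down from place 16 (69.1 ± 3.0 TPM) to 26 (28.2 ± 6.3), and ELL2 from 12 to 21. In S239A the same 3 genes led, as PMEPA1 (532 ± 24 TPM), KLK4 (486 ± 116.4) and FKBP5 (456 ± 35), with the SD of KLK4 spanning the means of both others.

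Partners and cofactors of the receptor were read, together with the glucocorticoid receptor gene NR3C1, as a list of 22 genes, all tested. In S239D against WT, 6 were higher and 6 lower (54.5%, beside 41.4% of all genes; median log2 fold change 0.11), and against S239A 6 were higher and 5 lower (beside 43.6% of all genes called). By edgeR 0 of the 22 passed in S239A against WT, with 4 at an unadjusted p under 0.05, beside 9.76% of all genes.

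Coactivators and corepressors were both among the higher ones. The acetyltransferases EP300 (101 ± 2.4 CPM in WT and 201 ± 17 in S239D, 1.0, edgeR adjusted p = 3.6e-06) and CREBBP (0.92, edgeR adjusted p = 1.4e-05), the coactivators NCOA2 (0.88) and MED1 (0.46), and the corepressor NCOR1 (0.63) rose. NR3C1, the glucocorticoid receptor, which binds the same motif, rose from 40.3 ± 3.7 CPM in WT to 86.0 ± 9.7 in S239D (1.10, SE 0.14, edgeR adjusted p = 2.7e-05). Of the partner factors, HOXB13 went from 417 ± 2.4 CPM in WT to 280.2 ± 39 in S239D (-0.57, edgeR adjusted p = 0.00022) and FOXA1 from 626 ± 12 to 532 ± 30 (-0.23, edgeR adjusted p = 0.0272). Against S239A, HOXB13 passed as well (-0.63, edgeR adjusted p = 9.3e-05). FOXA1 stood at 536 ± 42 CPM in S239A, level with S239D (S239D against S239A -0.01, edgeR adjusted p = 0.923). The FOXA1 call against WT was lost without any WT library, S239D replicate 2 or S239D replicate 3 (edgeR adjusted p 0.0539 to 0.0999). There limma on log2(TPM + 1) gave 0.02 (adjusted p = 0.91). EZH2, the Polycomb methyltransferase, fell (-0.62, edgeR adjusted p = 0.00026), as did HDAC3 (-0.35, edgeR adjusted p = 0.0155), PTGES3 (-0.27) and KDM1A (-0.25). HDAC3 was lost without WT replicate 1, WT replicate 3 or S239D replicate 3 (edgeR adjusted p 0.0507 to 0.0663), as it was by limma on log2(TPM + 1) at adjusted p = 0.743.

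**Figure D4:**
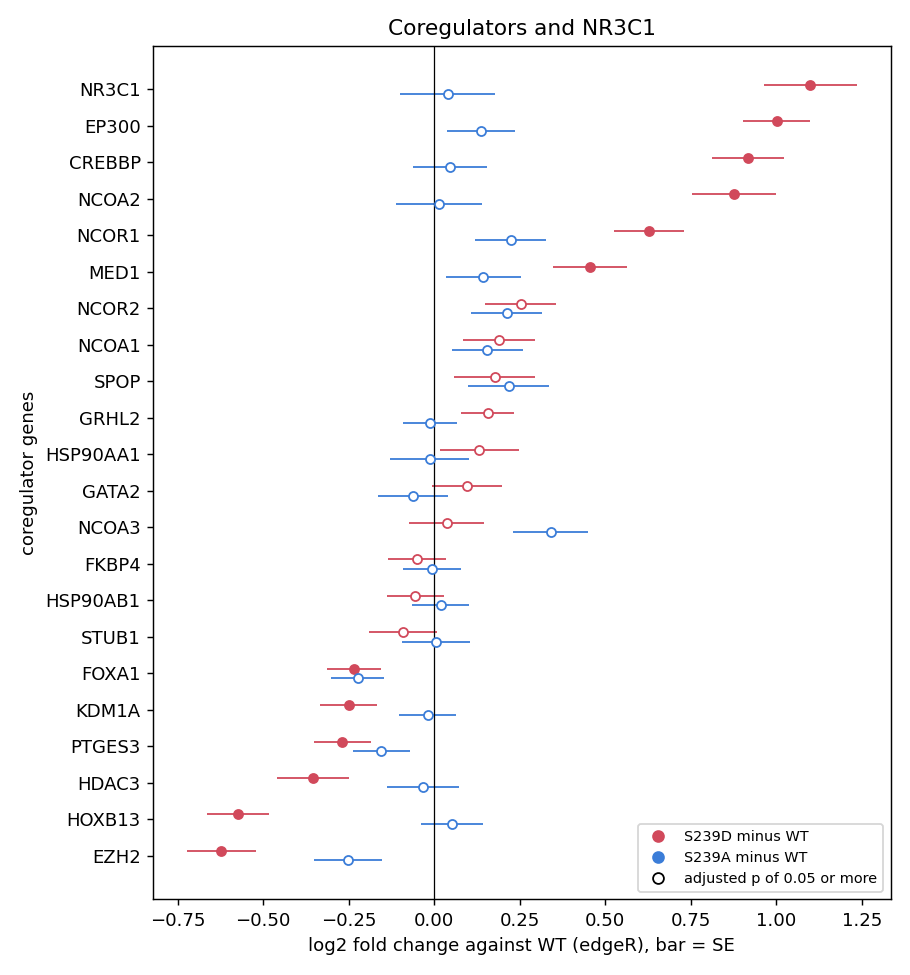
Log2 fold changes against WT (edgeR, x axis, bars are SE) of 22 genes (y axis), the partners and cofactors with NR3C1. Both S239D and S239A are shown, with open points for an adjusted p of 0.05 or more. NR3C1 (1.10) and EP300 (1.0) lie farthest right and EZH2 (-0.62) farthest left in S239D, and all S239A points are open.

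A further list of androgen-response genes outside the 47 held 78 names, of which 77 were tested. It too was split: 17 were higher and 27 lower in S239D than in WT (57.1%, beside 41.4% of all genes; median -0.09), and 16 higher and 27 lower against S239A (55.8%, beside 43.6% of all genes). The 3 largest rises among them were PTPN21 (1.64, edgeR adjusted p = 3.7e-05), a phosphatase, RRP12 (0.94, edgeR adjusted p = 8.7e-06), a ribosome assembly factor, and ELK4 (0.84, edgeR adjusted p = 7.3e-05), an ETS factor. The 3 largest falls were IQGAP2 (-2.76, edgeR adjusted p = 1.1e-05), a scaffold, TNFAIP8 (-1.53, edgeR adjusted p = 6.1e-05) and the luminal keratin KRT8 (-1.25, edgeR adjusted p = 2.7e-07). IQGAP2 was lost with limma on log2(TPM + 1) (-0.79, adjusted p = 0.0815).

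The 24 members called in S239D against WT have 48 nearest tested neighbours with a symbol, 1 on each side. Tested genes without a symbol were passed over, and the gap reached 8091 kb (TNKS1BP1 from FOLH1). Of these, 24 were called, 18 in the member's direction and 6 in the other, beside 41.4% of all genes called. Among the 6 were IQCB1 (0.40) and SLC15A2 (1.09) beside EAF2, and GDNF-AS1 (2.56), 521 kb from LIFR. How often neighbours share a direction over all genes was not determined, so the 18 are not read as a shared change. Some neighbours, such as LIFR-AS1, VPS26B and CMC2, overlap their member and may share reads with it. The neighbours named here were chosen after their values were seen. ELK4 lies 25.9 kb from SLC45A3 on the same strand, and transcripts that run from SLC45A3 into ELK4 are known in prostate cancer. Such transcripts were not looked for here, and their part in the values of ELK4 was not tested. ELK4 stood at 70.5 ± 4.4 CPM with WT, 75.6 ± 4.1 with S239A, and 126 ± 23 with S239D (SD, n = 3), while NUCKS1 on the other side, 32.3 kb away, did not pass (0.10, edgeR adjusted p = 0.406). PFKFB2, a regulator of glycolysis 1.61 kb from C1orf116 on the opposite strand, stood at 31.6 ± 1.1, 31.4 ± 2.5 and 90.0 ± 5.7 CPM. Its rise over WT was 1.51 (SE 0.10, edgeR adjusted p = 1.1e-07), beside 1.70 for C1orf116. MX1, 5.09 kb from TMPRSS2 on the opposite strand, fell with it, from 7.03 ± 0.80 CPM in WT to 2.64 ± 1.4 in S239D (-1.37, edgeR adjusted p = 0.0025). MX1 was lost with limma on log2(TPM + 1) (adjusted p = 0.154). KLK15, 17.7 kb from KLK3, fell from 11.2 ± 0.92 to 4.83 ± 1.3 CPM (-1.22, edgeR adjusted p = 0.00028).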

How the data were processed

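The 9 libraries, 3 for each form of PDCD4 put back after its knockdown, were grouped by their genotype labels. Per the labels' protocols, RNA was selected on poly-T beads. The authors deposited expected counts per gene, which carry no normalization between libraries, and TPM, which the authors scaled within each library. The submitters' processing notes name Trimmomatic 0.39 and RSEM. For the aligner, build, annotation and strandedness, nothing is given in the sources used. Coordinates were read from the deposited table. All 47 members were found in GENCODE release 29 and overlapped it on the same chromosome and strand on GRCh38, and 43 shared a gene end.

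For edgeR 4.0.16 (R 4.3.3), expected counts were rounded, 3.81% of values not being whole. The filterByExpr function left 16213 genes, with genes lacking a symbol (22747, 1.33% of counts) kept in the table. TMM scaling and a single model of all 9 libraries were used, tested two-sided by quasi-likelihood F. Benjamini-Hochberg adjustment ran over all genes tested, with calls at 0.05. SE and 95% intervals come from the F statistic, and levels are TMM-normalised CPM as mean ± SD. The script was tested on simulated data.

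The members and gene lists were chosen with earlier results of these data known. Values in every library are given for KLK2, KLK3, TMPRSS2, FKBP5, the tested repressed members and the 8 largest rises and 8 largest falls among induced members called in S239D against WT with a mean of at least 1 CPM. Of the other lists, FOXA1, HOXB13 and the 3 largest called rises and falls were named. Further genes were chosen after their values were seen. Some genes of the lists are not reported here and were left out of the lists' counts. Alternatives were scaling by RLE, DESeq2 1.42.0, limma 3.58.1 on log2(TPM + 1) where 3 libraries had at least 1 TPM, filters of none and of 1 CPM in 6 libraries, models of only the compared groups, a block for the replicate number, and leaving out each library. Leaving out both variants' replicate 2 libraries was chosen after seeing the data.

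Pairing was checked by correlating deviations from the group means over genes, which are not independent replicates. Same-numbered S239A and S239D libraries gave 0.100, 0.251 and 0.103, while S239A 3 and S239D 1, of different numbers, gave 0.150. Same-numbered libraries of WT and either variant gave -0.0087 to 0.091. The labels do not say whether the numbers pair the groups. The main edgeR fit used no pairing in any comparison, and the replicate number entered only as the block among the alternatives.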

Additional observations from a re-analysis of the deposited data

How the results depend on the processing

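Counts of members called did not change under RLE scaling and a filter of 1 CPM in 6 libraries. Among induced members in S239D against WT, 8 higher became 5 with no filter and 10 lower became 16 without both variants' replicate 2 libraries. Leaving out each library in turn gave 5 to 8 higher and 8 to 14 lower, the 5 without WT replicate 3 or S239D replicate 3, and 4 to 6 repressed members called. In S239D against S239A these ranges were 7 to 9, 11 to 15 and 6 to 7, and in S239A against WT 0 to 0 throughout. Limma on log2(TPM + 1) gave 8 induced members lower in S239D against S239A in place of 13, and 2 repressed members called in place of 6 (against WT) and of 7 (against S239A). In S239A against WT, induced members higher went from 0 to 2 with DESeq2, 3 with no filter and 5 without both replicate 2 libraries, and lower from 0 to 3 in the last case. The cause of these changes was not tested.

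With the replicate number as a block, induced members in S239D against WT were 8 higher and 13 lower, the added ones being KLK2, RAB3B and CHRNA2. The block changed no member's call in S239D against S239A (8 higher, 13 lower and 7 repressed called).

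Gene results were followed here for members with values in every library and for other named genes that are not members. Of 69 such results called, 47 held in every alternative, which is not the share for members alone. Both calls of NCAPD3, and those of RAB3B, SGK1, CAMKK2, RHOU and TMEFF2 against S239A, were not among the 69. Of these, only the TMEFF2 call held in every alternative. Values that turned direction were not called, except FOXA1 in S239D against WT, called at -0.23 and at 0.015 with limma on log2(TPM + 1). EAF2 in S239D against S239A, 0.05 with all libraries, ran from -0.18 to 0.33 over single libraries left out (-0.12 without S239A replicate 2, -0.019 without S239A replicate 3, -0.18 without S239D replicate 2), and was -0.35 without both replicate 2 libraries. The same ranges in S239A against WT were -0.20 to 0.10 for KLK2, -0.013 to 0.11 for SORD and -0.026 to 0.11 for ACSL3, each changing sign without S239A replicate 2 and, at 0.099, -0.0093 and -0.028, without both replicate 2 libraries. For STEAP2 the range was -0.030 to 0.021, above 0 without WT replicate 2 (0.021) or S239A replicate 3 (0.018). Limma on log2(TPM + 1) gave TPD52 0.043, NTNG1 0.23 and SLC30A4 -0.099 there. Depth leaves wide intervals for scarce members such as EAF2, NTNG1, DDC, STEAP4 and GNMT.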

Other observations

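Genes that respond to glucocorticoid in many tissues were read as a list of 9, of which 8 were tested, because NR3C1 rose in S239D. In S239D against WT 1 was higher and 4 were lower (62.5%, beside 41.4% of all genes; median log2 fold change -0.47, against 0.00075 over all genes). PER1, a clock gene, rose from 59.0 ± 5.4 CPM in WT to 135 ± 20 in S239D (1.19, edgeR adjusted p = 2.8e-06). GLUL, glutamine synthetase, fell from 159 ± 2.4 to 78.7 ± 6.4 CPM (-1.02, edgeR adjusted p = 6.0e-07), and NFKBIA, the inhibitor of NF-kB, from 40.6 ± 4.6 to 25.1 ± 2.5 CPM (-0.70, edgeR adjusted p = 0.00073). The NFKBIA call was lost with limma on log2(TPM + 1). DUSP1, a phosphatase of MAP kinases, was at -0.49 (edgeR adjusted p = 0.00097). Against S239A 1 was higher and 4 were lower, beside 43.6% of all genes called. DUSP1 was not among those 4 (-0.11, edgeR adjusted p = 0.383). In S239A against WT 0 of the 8 passed by edgeR, with 5 at an unadjusted p under 0.05, beside 9.76% of all genes.

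RHOBTB3, 60.7 kb from ELL2 on the opposite strand, stood at 54.9 ± 7.5 CPM in WT and 29.2 ± 4.2 in S239D (SD, n = 3; -0.91, edgeR adjusted p = 7.7e-05), close to ELL2 at -0.92.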
